A study of Sus scrofa with 9 samples.

Results

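Leukocyte integrins and homing receptors are the surface proteins with which white blood cells grip the vessel wall and leave the blood. The gene group comprised 9 names: the integrin chains ITGB2, ITGAM, ITGAL, ITGAX, ITGA4 and ITGB7, the selectin ligand SELPLG, the integrin activator FERMT3 (kindlin-3) and the leukocyte phosphatase PTPRC (CD45). A gene belonged to it when the deposited table listed it under that name, whatever its level. Of the 9 names, 7 had a row among the 21357 genes of the table, and none of the 7 had more than 1 row. ITGAX and SELPLG had no row of that name.

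RNA-seq was performed on the lower end of the aorta in the abdomen, taken from male pigs of a small breed, the Tibetan minipig. The 9 libraries fell into 3 groups of 3: NC, pigs on a regular diet for 24 weeks, H8, pigs on a high-fat/cholesterol (HFC) diet for 8 weeks, labelled hypercholesterolemia, and H24, pigs on the HFC diet for 24 weeks, labelled atherosclerosis. The HFC diet was basal feed with shortening, cholesterol and egg yolk powder, no transgene or drug is named, and the labels do not give the ages at sampling. The labels call the diet high-fat, and the study's methods do not describe H8. No regular-diet group of 8 weeks was analysed here, so in both comparisons that use H8 the diet, its duration and the pigs' age at sampling cannot be told apart.

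An integrin is a pair of an alpha and a beta chain. The beta 2 chain ITGB2 pairs with ITGAL to form LFA-1, with ITGAM to form Mac-1 and with ITGAX to form the CD11c integrin, and all of these bind ICAM proteins on the endothelium. ITGA4 pairs with ITGB1 to form VLA-4, a receptor for VCAM1, or with ITGB7 to form a receptor for the gut address protein MADCAM1. SELPLG carries the sugars that selectins catch while a leukocyte rolls, and kindlin-3 binds the tails of beta chains when an integrin switches to its gripping state. PTPRC is carried by nearly all leukocytes and sets the activity of their Src family kinases.

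The total counts were between 44094263 and 75787978 per library, and the smallest signal considered, 3 counts, was equal to 0.0396 to 0.0680 CPM depending on the library, a floor for counting error alone. Pearson's r of log2 CPM between libraries of a group, across genes, was 0.960 to 0.964 in NC, 0.945 to 0.959 in H8 and 0.876 to 0.941 in H24. H24 replicate 3 stood apart. Its 7 smooth muscle markers summed to 1710 FPKM against 7955 and 11507 in H24 replicates 1 and 2 and 11637 to 13575 in NC, and its 8 macrophage markers summed to 1510 FPKM against 231 and 139. FPKM is the number of fragments scaled to transcript length and to the fragments mapped in the library. The smooth muscle markers of the labelled vessel wall thus summed to at least 1710 FPKM in all 9 libraries. Calls that use the H24 libraries are therefore also given without it.

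All 7 genes were at their highest of all 9 libraries in H24 replicate 3, where they were 4.27 to 8.29 times the level of the next H24 library. Mean FPKM followed the order NC, H8, H24 in 6 of the 7, the exception being ITGA4. Within H8, replicate 2 was the lowest library for all 7 genes and lay within the range of NC for 4 of them (ITGAM, ITGAL, ITGA4 and ITGB7), while replicate 1 was the highest for 6. Within H24, replicate 2 was the lowest for 6, the exception being ITGB7. In bulk tissue, a change in the number of cells of a type and a change in the RNA per cell cannot be told apart.

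**Figure D1:**
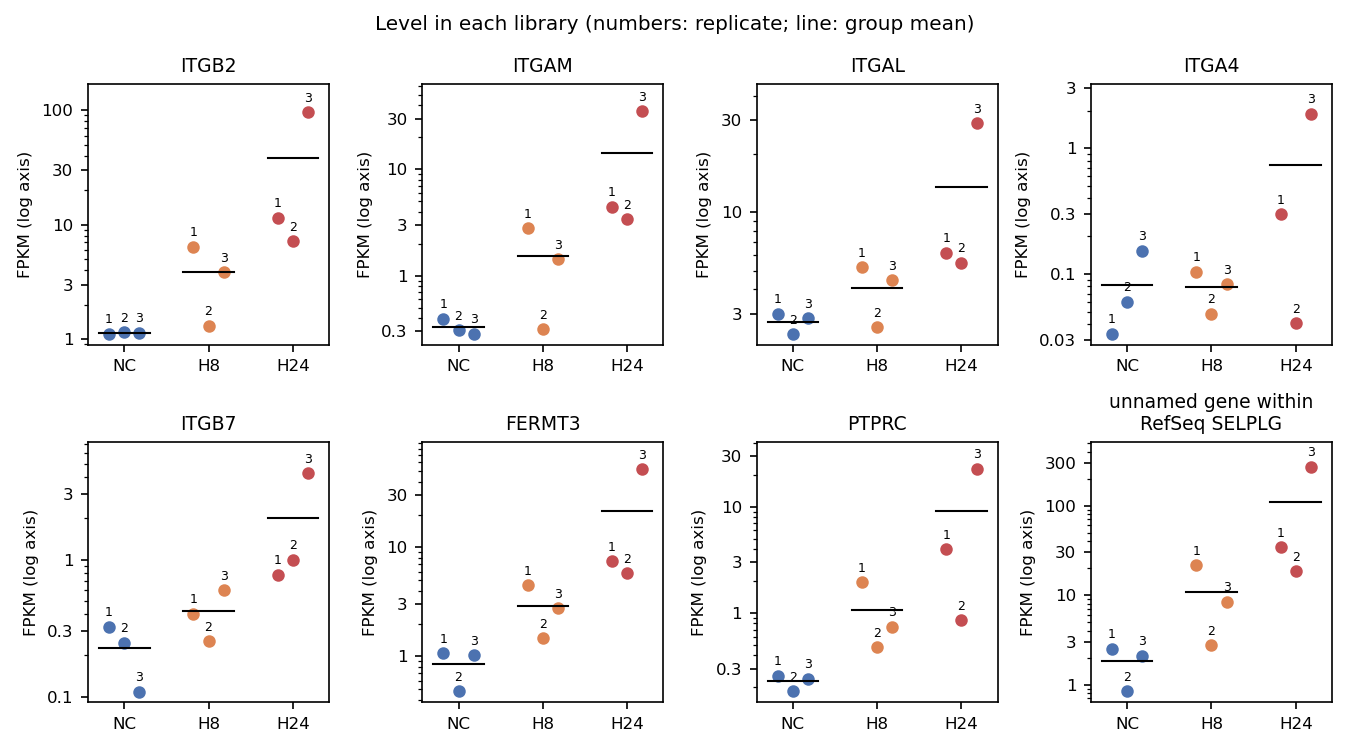
FPKM (log axis, a separate range in each panel) of the 7 genes and of an unnamed gene within the RefSeq interval of SELPLG in the 9 libraries, by group, with the replicate number above each point and a line at the group mean. H24 replicate 3 is the highest point of every panel, and H24 replicates 1 and 2 lie above all NC libraries for every gene shown except ITGA4, where replicate 2 lies within the NC range.

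The beta 2 chain and its partners are described first. ITGB2 (ENSSSCG00000025133, Sscrofa11.1 chr13:207510960-207544146, minus strand, 4 transcripts) was at 1.12, 1.15 and 1.14 FPKM in NC replicates 1 to 3, at 6.40, 1.32 and 3.83 in H8 and at 11.5, 7.16 and 95.8 in H24. The NC libraries were close together, at 1.14 ± 0.01415 FPKM (mean ± SD, n = 3), and every library of the other groups lay above them. The H8 mean was 3.85 ± 2.54 and the H24 mean 38.2 ± 49.9 FPKM. Relative to the NC mean, H24 replicates 1, 2 and 3 were 10.2-fold, 6.30-fold and 84.3-fold higher. A RefSeq pseudogene (LOC106508046) shares 7836 bases with the interval, and whether the counting separated its reads is not stated.

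ITGAM, the alpha chain of Mac-1, which myeloid cells use to adhere and to take up complement-coated particles, was at 0.394, 0.308 and 0.286 FPKM in NC, at 2.81, 0.312 and 1.43 in H8 and at 4.47, 3.37 and 35.2 in H24. All 3 H24 libraries lay above all NC and all H8 libraries, whereas H8 replicate 2 was at the NC level. The means were 0.329 ± 0.0573 in NC, 1.52 ± 1.25 in H8 and 14.3 ± 18 FPKM in H24 (SD, n = 3 each). The row named ITGAM (ENSSSCG00000007754, Sscrofa11.1 chr3:17134864-17265533, minus strand) has 10 transcripts and spans 130670 bases. It covers the whole RefSeq intervals of ITGAD (chr3:17136161-17169776) and ITGAX (chr3:17178725-17201388, annotated as a long non-coding RNA) and 48815 bases of that of ITGAM (chr3:17216719-17272134), and the table's own description of the row names integrin subunit alpha D. The values under this name can therefore hold reads of all 3 genes, and they are the only values that bear on ITGAX.

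**Figure D2:**
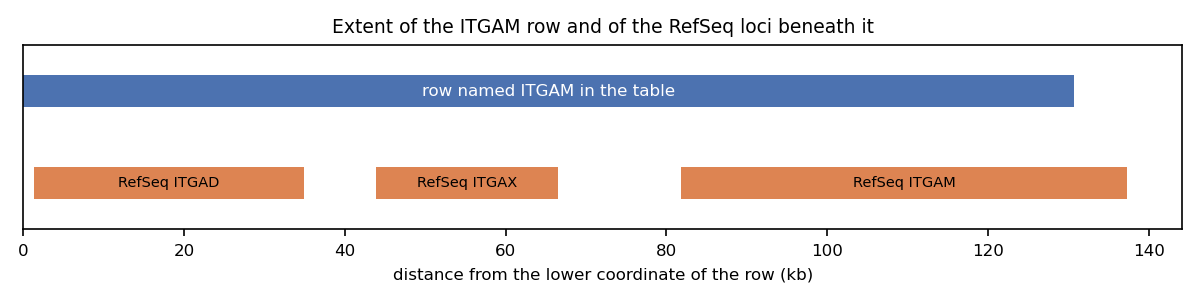
Extent of the row named ITGAM (upper bar) and of the RefSeq genes ITGAD, ITGAX and ITGAM (lower bars), as distance in kb from the lower coordinate of the row, drawn to scale. The row, 130670 bases long, covers the first 2 RefSeq genes whole and 48815 bases of the third.

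ITGAL, the alpha chain of LFA-1, carried by lymphocytes and myeloid cells, was at 2.995, 2.35 and 2.84 FPKM in NC, at 5.20, 2.56 and 4.45 in H8 and at 6.18, 5.50 and 28.8 in H24 (ENSSSCG00000007797, Sscrofa11.1 chr3:17817568-17858086, minus strand). It was the highest of the 7 genes in NC, with a mean of 2.73 ± 0.336 FPKM, and its H24 libraries lay 2.26-fold, 2.02-fold and 10.6-fold above that mean. The H8 mean was 4.07 ± 1.36 and the H24 mean 13.5 ± 13.3 FPKM. No other gene of the table overlaps it.

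ITGA4 and ITGB7 form the lymphocyte homing receptor for MADCAM1 and were the least abundant. ITGA4 (ENSSSCG00000016009, Sscrofa11.1 chr15:86946996-87029729, plus strand) was at 0.0337, 0.0602 and 0.153 FPKM in NC, at 0.104, 0.0487 and 0.0831 in H8 and at 0.300, 0.0408 and 1.88 in H24. These values rest on 16, 34 and 72 counts in NC, 52, 24 and 46 in H8 and 144, 14 and 829 in H24, so all are above the floor of 3 counts. H24 replicate 2 was within the NC range, the groups overlapped in every comparison, and the means were 0.0825 ± 0.0629 in NC, 0.0787 ± 0.0281 in H8 and 0.741 ± 0.996 FPKM in H24.

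ITGB7 (ENSSSCG00000000257, Sscrofa11.1 chr5:18417198-18434526, minus strand) was at 0.323, 0.247 and 0.109 FPKM in NC, at 0.403, 0.254 and 0.600 in H8 and at 0.776, 0.998 and 4.26 in H24. All H24 libraries were above all NC and H8 libraries, while H8 and NC overlapped. The means were 0.226 ± 0.108 in NC, 0.419 ± 0.173 in H8 and 2.01 ± 1.95 FPKM in H24. Its interval shares 1789 bases with ZNF740 on the plus strand, which was at 6.27 to 15.1 FPKM, and whether the counting used strand is not stated.

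FERMT3, the kindlin of blood cells, was at 1.07, 0.479 and 1.02 FPKM in NC, at 4.47, 1.47 and 2.77 in H8 and at 7.48, 5.80 and 52.0 in H24 (ENSSSCG00000013041, Sscrofa11.1 chr2:7883988-7909897, minus strand). Its 3 groups did not overlap, with means of 0.856 ± 0.327 in NC, 2.91 ± 1.51 in H8 and 21.7 ± 26.2 FPKM in H24. The row shares 2786 bases with TRPT1 on the plus strand, at 1.79 to 4.32 FPKM, and 409 bases with STIP1 on its own strand, at 10.96 to 42.4 FPKM.

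PTPRC (ENSSSCG00000010908, Sscrofa11.1 chr10:21483275-21602035, plus strand, 5 transcripts) was at 0.257, 0.184 and 0.243 FPKM in NC, at 1.96, 0.480 and 0.747 in H8 and at 4.00, 0.855 and 22.8 in H24. Every library on the HFC diet lay above every NC library, and H24 replicate 2 lay within the range of H8. The means were 0.228 ± 0.0386 in NC, 1.06 ± 0.787 in H8 and 9.21 ± 11.9 FPKM in H24.

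SELPLG was not read under its name. RefSeq places it at Sscrofa11.1 chr14:42158694-42178044, and the table holds 1 unnamed gene wholly within that interval (ENSSSCG00000024495, chr14:42172829-42174048, plus strand, 1220 bases). This unnamed gene was at 2.52, 0.845 and 2.11 FPKM in NC, at 21.6, 2.74 and 8.43 in H8 and at 34.2, 18.6 and 273.0 in H24. All H8 and H24 libraries lay above all NC libraries. Whether its reads are those of SELPLG was not tested, and it is not counted among the 7.

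The order of the genes by mean FPKM, a level per length, changed between groups. In NC it was ITGAL, ITGB2, FERMT3, ITGAM, PTPRC, ITGB7 and ITGA4, and each of the first 4 did not overlap with the next. H8 kept the order of the means, but only ITGB7 and ITGA4 did not overlap there. In H24 the means were 38.2 FPKM for ITGB2, 21.7 for FERMT3, 14.3 for ITGAM and 13.5 for ITGAL. PTPRC followed at 9.21, ITGB7 at 2.01 and ITGA4 at 0.741 FPKM. The range of every gene overlapped with that of its neighbour. Within libraries, ITGAM was above ITGAL only in H24 replicate 3, at 35.2 against 28.8 FPKM. PTPRC was above ITGB7 in 2 of the 3 H24 libraries, and each other gene was above the next in all 3. The number of counts behind 1 FPKM in NC was 1303 for ITGAM and 394 for ITGAL, so the order also rests on the transcript models the authors used.

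H24/NC and H8/NC share the NC libraries, and H24/H8 shares the HFC libraries with both. The question of H24 against NC was which of these genes differed after 24 weeks of the HFC diet. By edgeR's quasi-likelihood test all 7 passed the study's thresholds as higher in H24 (log2 fold change over 1 with an unadjusted p under 0.05), against 9.95% of the 14828 genes tested. Their log2 fold changes ranged from 2.30 to 5.43 with a median of 4.66, where the median of all genes tested was 0.01. Under Benjamini-Hochberg adjustment over all genes tested, 0 of the 7 had a p under 0.05, and 0% of all genes did. DESeq2 placed 4 of the 5 genes for which it gave a p-value past the adjusted threshold, against 879 of 14828 genes higher. Limma placed 0 of 7 past it. FPKM in H24 and NC did not overlap for 6 of the 7, against 12.8% of genes with all H24 libraries higher. ITGB2, ITGAM and PTPRC are hub genes that the paper drew from its own differential genes of these groups. Their calls here are therefore not independent of that choice.

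The largest changes in this comparison were those of ITGAM, PTPRC and ITGB2. ITGAM was higher by 5.43 ± 1.03 (log2 fold change ± SE, edgeR adjusted p = 0.132) and ITGB2 by 5.05 ± 1.07 (edgeR adjusted p = 0.132). PTPRC was higher by 5.32 ± 1.17 and FERMT3 by 4.66 ± 0.97, both with an edgeR adjusted p of 0.132. ITGB7 was higher by 3.13 ± 0.80 (edgeR adjusted p = 0.163) and ITGAL by 2.30 ± 0.67 (edgeR adjusted p = 0.209). ITGA4 passed the unadjusted thresholds with a log2 fold change of 3.14 ± 1.298 (edgeR adjusted p = 0.349).

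Without H24 replicate 3 the fold changes and their errors were smaller for all 7 genes. The log2 fold change of ITGB2 was then 3.005 ± 0.25, of ITGAM 3.54 ± 0.25, of FERMT3 2.93 ± 0.37 and of PTPRC 3.36 ± 0.58, with edgeR adjusted p-values of 0.00460, 0.00460, 0.0102 and 0.0326. These 4 passed the adjusted threshold, against 1.99% of the 14578 genes tested. ITGAL (1.08 ± 0.23) and ITGB7 (1.94 ± 0.54) passed the unadjusted threshold, which 6.49% of genes passed, with edgeR adjusted p-values of 0.0709 and 0.173. ITGA4 lost its call without H24 replicate 3, at 1.004 ± 0.95 (edgeR adjusted p = 0.815), and also without H24 replicate 1, where the log2 fold change was 3.52, or without NC replicate 1, 2 or 3, where it was 2.76, 2.98 and 3.89.

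In H8 against NC, 4 of the 6 genes tested passed the study's thresholds, all higher in H8, against 5.11% of 14336 genes. ITGA4 was not tested because its mean FPKM was under 0.1. PTPRC was higher by 2.33 ± 0.51 (log2 fold change ± SE), ITGAM by 2.30 ± 0.65, FERMT3 by 1.89 ± 0.45 and ITGB2 by 1.86 ± 0.47, with edgeR adjusted p-values of 0.187, 0.219, 0.200 and 0.206. ITGAL had a log2 fold change of 0.70 ± 0.25 (edgeR adjusted p = 0.274), below the fold threshold, and ITGB7 of 1.002 ± 0.52 with an unadjusted p over 0.05 (edgeR adjusted p = 0.415). No gene of the 6 passed the adjusted threshold by edgeR (adjusted p 0.187 to 0.415), as 0.014% of all genes did, although 5 of 6 had an unadjusted p under 0.05. DESeq2 placed 4 of the 6 past the adjusted threshold, against 445 of 14336 genes higher, and limma 0. FPKM did not overlap for ITGB2, FERMT3 and PTPRC, against 6.91% of all genes. Without H8 replicate 2, which was the lowest H8 library for all 7 genes, ITGB2 and ITGAM passed the adjusted threshold in edgeR, against 0.236% of 14384 genes.

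In H24 against H8, all 7 genes passed the unadjusted thresholds as higher in H24, against 7.22% of 14788 genes. The log2 fold changes ran from 1.55 ± 0.66 for ITGAL to 3.13 ± 1.07 for ITGB2. By edgeR no gene of the 7 passed the adjusted threshold (adjusted p 0.341 to 0.364), as 0.0135% of all genes did. Of the 6 genes with a p-value in DESeq2, 2 passed it, against 447 of 14788 genes higher. Limma placed 0 of 7 past it. FPKM did not overlap for 5 genes, the exceptions being ITGA4 and PTPRC, against 15.5% of all genes. The number called depended on which library was left out, and each such fit had only 2 libraries in 1 group. All 7 were still called without H24 replicate 1, against 1140 of 14767 genes, and without H24 replicate 2, against 1407 of 14715 genes. Without H24 replicate 3 only FERMT3 was called (1.04 ± 0.41, edgeR adjusted p = 0.441), against 3.75% of 14589 genes, and 0 of 7 passed the adjusted threshold, against 0.0206%. Without H8 replicate 1, 4 of the 7 were called, against 5.98% of all genes, without H8 replicate 2, 0 of the 7, against 3.73%, and without H8 replicate 3, 1 of the 7, against 4.18%.

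**Figure D3:**
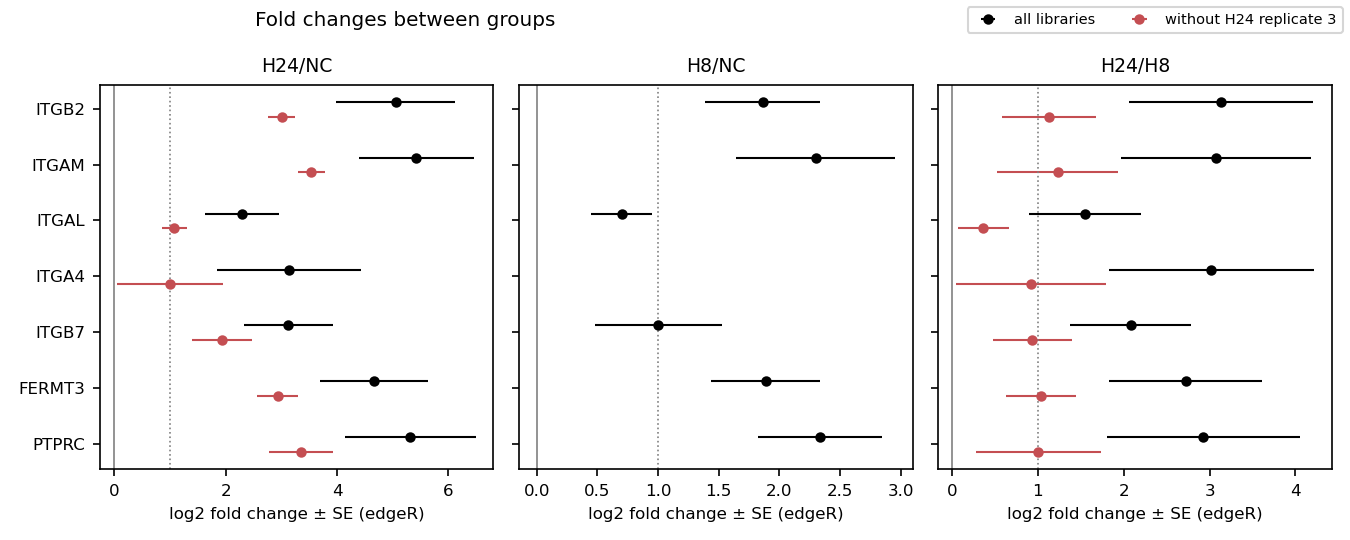
Log2 fold change with its standard error (edgeR) of the 7 genes in H24/NC, H8/NC and H24/H8, with all libraries (black) and without H24 replicate 3 (red), with lines at 0 (solid) and at the fold threshold of 1 (dotted); each panel has its own horizontal range, and ITGA4 was not tested in H8/NC. All points lie above 0, and H24/H8 without H24 replicate 3 lies between 0.37 and 1.23.

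The ratio of each gene to PTPRC within a library gives its level per unit of a transcript that nearly all leukocytes carry. ITGB2, ITGAM and FERMT3 kept overlapping ratios to PTPRC in all 3 groups. The mean log2 ratio of ITGB2 to PTPRC was 2.33 in NC, 1.84 in H8 and 2.22 in H24, and that of FERMT3 was 1.84, 1.57 and 1.62. That of ITGAM was 0.53, 0.28 and 0.92. For these 3 genes the difference between H24 and NC was -0.11, -0.22 and 0.39 on the log2 scale, in the order ITGB2, FERMT3 and ITGAM (exact permutation p = 0.8 for each, two-sided).

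ITGAL and ITGA4 had lower ratios to PTPRC in both HFC groups. The log2 ratio of ITGAL to PTPRC was 3.54, 3.68 and 3.55 in NC, 1.41, 2.41 and 2.58 in H8 and 0.63, 2.69 and 0.34 in H24. The NC libraries lay above all others, and the difference was -2.37 for H24 and -1.46 for H8 (exact permutation p = 0.1, two-sided, adjusted p = 0.3 over 6 genes in both). The log2 ratio of ITGA4 to PTPRC was -2.93, -1.61 and -0.66 in NC, -4.23, -3.30 and -3.17 in H8 and -3.74, -4.39 and -3.60 in H24, again with no overlap between NC and either HFC group. Its differences were -2.17 for H24 and -1.83 for H8 (exact permutation p = 0.1, adjusted p = 0.3). With 3 libraries against 3, an exact two-sided p cannot be below 0.1, so neither difference could pass 0.05. The ratio of ITGB7 to PTPRC was lower by 1.39 in the mean of H24 than in that of NC, but the groups overlapped (exact permutation p = 0.2).

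The 2 alpha chains with a row were also set against their beta chain, and the row named ITGAM can also hold reads of ITGAD and ITGAX. The log2 ratio of ITGAL to ITGB2 was 1.42, 1.03 and 1.32 in NC, -0.30, 0.96 and 0.22 in H8 and -0.90, -0.38 and -1.73 in H24. The 3 groups did not overlap, with a difference between H24 and NC of -2.26 (exact permutation p = 0.1, two-sided, the smallest possible). The log2 ratio of ITGAM to ITGB2 was higher in H24 than in NC by 0.50 with no overlap (exact permutation p = 0.1), and by 0.25 when 0.1 FPKM was added to both. In H8 it overlapped with both other groups.

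**Figure D4:**
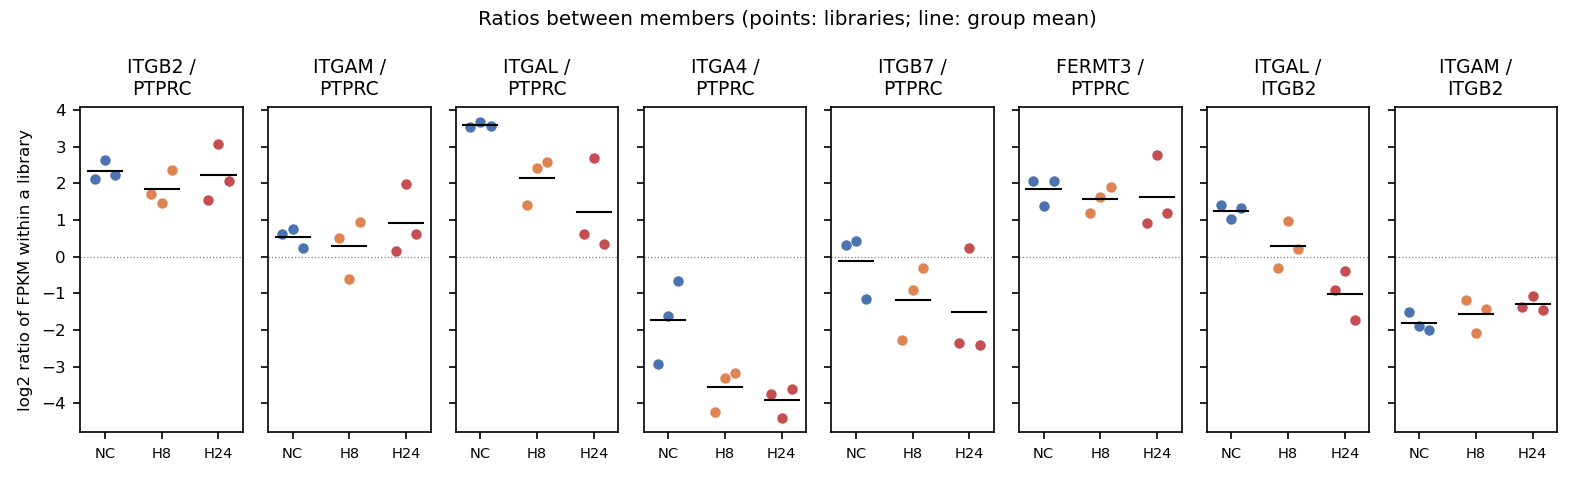
Log2 ratio of FPKM within a library of 6 genes to PTPRC and of both alpha chains to ITGB2, with 1 point per library in replicate order and a line at the group mean. The ratios of ITGAL to PTPRC and to ITGB2 in NC (3.54 to 3.68 and 1.03 to 1.42) lie above those of every HFC library, while ITGB2, ITGAM and FERMT3 overlap between groups in their ratio to PTPRC.

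Among 9749 named genes with a mean of at least 1 FPKM, the closest patterns over the 9 libraries were found by the root mean square difference of log2(FPKM + 0.1), each gene centred on its own mean. ITGB2 was closest to LAIR1 (0.21), an inhibitory collagen receptor of leukocytes, C1QA (0.21), a chain of complement C1q, and the unconventional myosin MYO1F (0.22), and its distance to ITGAM was 0.22. ITGAM was closest to LCP2 (0.19), TYROBP (0.19) and MYO1F (0.21). FERMT3 was closest to the tetraspanin CD53 (0.20), GMFG (0.26) and C1QA (0.26), and PTPRC to HACD4 (0.26), AIF1 (0.29) and PIK3AP1 (0.32). ITGAL had other neighbours, the lysosomal proteases SCPEP1 (0.18) and CTSB (0.18) and the kinase IKBKE (0.21), and its distance to ITGB2 was 0.998. ITGB7 was closest to CYBA (0.24), a subunit of the phagocyte oxidase, SH3BP2 (0.28) and KCNE3 (0.30), and ITGA4 to ENPP1 (0.29), the cholesterol-esterifying enzyme SOAT1 (0.32) and the mannose receptor MRC1 (0.33). These distances describe 9 libraries that share H24 replicate 3 as their highest point.

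The other genes of the adhesion pathway fell into 6 lists, and the calls given for them are those of the unadjusted thresholds. None of their genes passed the adjusted threshold in H24 against NC by edgeR. Over all genes tested, 9.95% were called higher in H24 against NC, 5.11% in H8 against NC and 7.22% in H24 against H8. Without H24 replicate 3 the shares were 6.49% in H24 against NC and 3.75% in H24 against H8. A count such as 1 of 11 is near these shares and is not read as a result about its list. Of the list of signalling from engaged integrins, 15 of 16 were called higher in H24 than in NC (median log2 fold change 4.41), 14 of 16 without H24 replicate 3 (median 2.54) and 10 of 16 in H8 against NC (median 1.499). The adaptor FCER1G rose by 5.29, the exchange factor VAV1 by 5.19, TYROBP, an adaptor that carries signals of myeloid receptors, by 4.97 and the actin regulator WAS by 4.45 on the log2 scale. The exception in H24 against NC was the kinase FYN (1.25), named after its value was seen.

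CD45 partners had 4 of 7 called higher in H24 than in NC (median 2.81), 3 of 6 without H24 replicate 3 and 2 of 6 in H8 against NC. PTPN22 rose by 5.58 from at most 0.0432 FPKM in NC. In H24 it was at 0.135, 0.0448 and 2.71 FPKM, so most of its rise came from replicate 3. The CD45-associated protein PTPRCAP rose by 4.61, the phosphatase PTPN6 (SHP-1) by 4.34 and LCK, the T cell kinase that CD45 activates, by 2.81. PTPN22 was not tested without H24 replicate 3. In selectin ligand synthesis 4 of 8 were called higher (median 0.73), namely TPST2 (1.65), TPST1 (1.58), GCNT1 (1.45) and FUT4 (1.10), 1 of 8 without H24 replicate 3 and 0 of 8 in H8 against NC. TPST1 and TPST2 add the sulfate groups and GCNT1 and FUT4 sugars of selectin ligands.

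Counter-receptors and selectins had 6 of 13 called higher in H24 than in NC (median 1.04), 5 of 13 without H24 replicate 3 and 2 of 12 in H8 against NC. VCAM1, the endothelial ligand of VLA-4, was at 24.5, 27.6 and 27.8 FPKM in NC and at 134, 63.5 and 166 in H24, a log2 fold change of 2.15 ± 0.37 (edgeR adjusted p = 0.132). SELE, the selectin of activated endothelium, rose by 4.48 and ICAM2 by 2.79. ICAM3 had 0 counts in all NC libraries and 47, 33 and 418 in H24. Its mean CPM in H24, most of it from replicate 3, was at least 63.0-fold higher against a floor of 3 counts in each NC library. In integrin activation 5 of 16 were called higher (median 0.50), 2 of 16 without H24 replicate 3 and 2 of 16 in H8 against NC. APBB1IP (RIAM), which brings talin to integrins, rose by 3.93, SKAP2 by 1.99, STK4 by 1.67 and CYTH1 by 1.15.

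Of the other integrin chains 2 of 11 were called higher in H24 than in NC (median 0.07), 1 of 11 without H24 replicate 3 and 1 of 11 in H8 against NC. ITGB3, the beta chain of the vitronectin receptor, rose by 2.73 and ITGB8 by 1.13, while ITGA6 (1.10) and ITGA9 (-1.02) had no call. In H24 against H8 the numbers called higher were 11 of 16 for signalling, 4 of 7 for CD45 partners, 3 of 8 for selectin ligand synthesis, 2 of 13 for counter-receptors, 3 of 16 for activation and 2 of 11 for other integrin chains. Without H24 replicate 3 they were, in the same order, 5 of 16, 0 of 6, 1 of 8, 0 of 13, 3 of 16 and 0 of 11. Among activation genes 1 was called lower, FERMT2 (-1.15), the kindlin of non-blood cells, named after its value was seen, which had no call without H24 replicate 3 (-0.80). Over all genes, 451 of 14788 were called lower in H24 against H8.

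**Figure D5:**
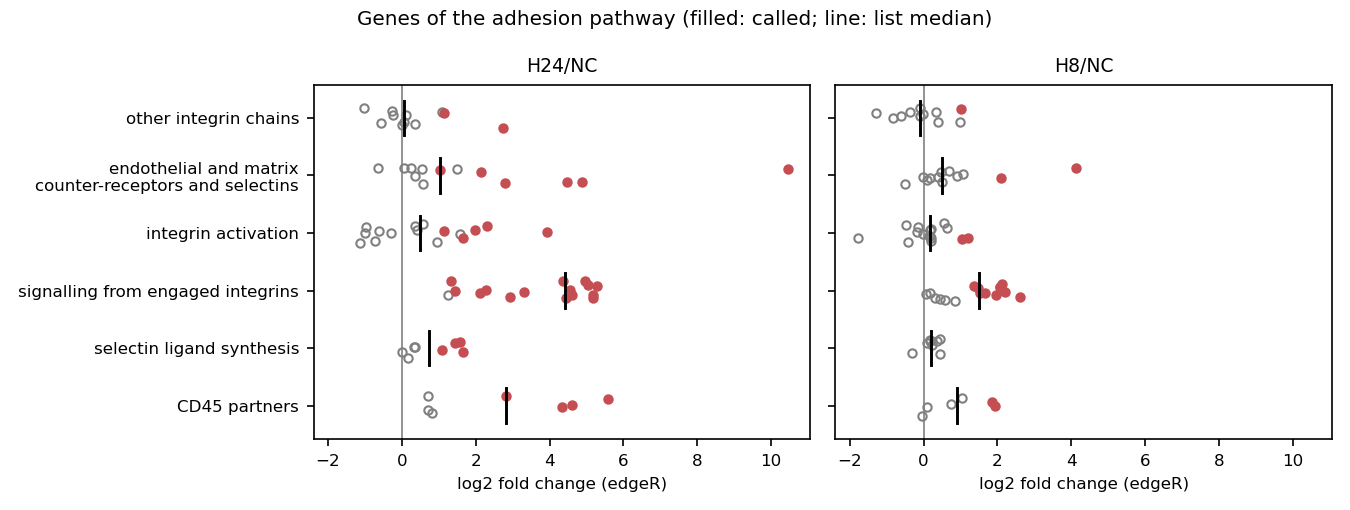
Log2 fold change (edgeR) of the genes of 6 adhesion lists in H24/NC (left) and H8/NC (right). Filled points passed the unadjusted thresholds, open points did not, and a line marks the median of each list. Signalling from engaged integrins had the highest median in both panels (4.41 and 1.499), and other integrin chains were centred near 0 (median 0.07 and -0.09).

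Markers of some other cell types were also called higher in H24 than in NC, and their part in the results was not tested. Over all genes tested, 9.95% were called higher in this comparison and 6.49% without H24 replicate 3. No marker with a row was at 0 in all 9 libraries. Of the macrophage markers 8 of 8 were called higher in H24 than in NC (6 of 7 without H24 replicate 3), and their summed FPKM was 19.96 to 26.7 in NC, 24.7 to 143 in H8 and 139 to 1510 in H24. T cell markers were called higher in 6 of 8 (sums 1.61 to 1.995 in NC, 1.46 to 2.90 in H8 and 6.83 to 24.9 in H24) and neutrophil markers in 4 of 6 (0.518 to 0.586, 3.05 to 4.49 and 5.15 to 62.0). Most of the neutrophil sums in H8 and H24 came from CSF3R, at 2.21 to 4.32 FPKM in H8 and 46.8 in H24 replicate 3. S100A8 was at 0 in all H8 libraries, against 0.144 to 0.247 FPKM in NC, and MPO was above 0 only in H24 replicate 3. In H8 against NC, 1 of the 2 neutrophil markers tested was called higher. B cell markers were called in 0 of 2 (5.07 to 5.74, 1.36 to 3.68 and 9.56 to 11.5), natural killer cell markers in 2 of 3 (0.193 to 0.224, 0.184 to 0.241 and 0.429 to 2.70), dendritic cell markers in 2 of 3 (0.0207 to 0.184, 0.126 to 0.536 and 0.909 to 4.42) and lymphoid tissue markers in 1 of 3 (74.1 to 96.1, 53.3 to 93.0 and 71.4 to 101). Without H24 replicate 3 the calls were 4 of 7 for T cell, 1 of 4 for neutrophil, 0 of 2 for B cell, 0 of 1 for natural killer cell, 1 of 2 for dendritic cell and 1 of 2 for lymphoid tissue markers.

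Markers of blood and of the vessel wall are given in the same order. Platelet markers were called in 0 of 3 (sums 11.7 to 13.7 FPKM in NC, 6.18 to 10.3 in H8 and 9.15 to 11.6 in H24) and erythrocyte markers in 0 of 2 (30.6 to 126, 45.4 to 204 and 19.5 to 253). Endothelial markers were called in 0 of 5 (49.1 to 129, 33.0 to 59.2 and 58.3 to 92.4), smooth muscle markers in 0 of 7 (11637 to 13575, 9846 to 13352 and 1710 to 11507) and fibroblast markers in 2 of 3 (190 to 246, 245 to 524 and 212 to 492). Adipocyte markers were called higher in 1 of 4 in H24 (10.0 to 35.3, 0.625 to 1.18 and 2.87 to 17.8) and lower in 3 of 3 in H8 against NC, where 326 of 14336 genes were called lower. In H24 against NC these 6 counts were the same without H24 replicate 3.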

How the data were processed

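RNA was measured in 9 libraries, grouped by the sample labels as NC, H8 and H24. The authors mapped reads with HISAT2 2.0 to Sscrofa11.1 and deposited FPKM values from StringTie 1.3.0 for 21357 genes. Beside FPKM, the deposited table gives an estimated count per gene and library (an expected count in whole numbers), whose derivation and strand setting are not given in the sources used here. The labels' processing notes also list Bowtie 0.12.2 and a mouse build, and their extraction text speaks of adipose tissue. The tissue label and the paper give the abdominal aorta.

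Counts were tested with edgeR 4.0.16 (R 4.3.3, TMM, quasi-likelihood test of both directions) for each pair of groups, over genes with a mean of at least 0.1 FPKM in the compared libraries. A call is a log2 fold change beyond 1 with a p-value under 0.05, unadjusted or Benjamini-Hochberg adjusted over all genes tested. Replicates are separate pigs by the paper for NC and H24. For H8 this is not stated, so its p-values measure only the spread between these libraries, which may be technical. No pair of libraries agreed within sampling noise (lowest chi-square per degree of freedom 191). Ratios were tested with exact permutation tests, adjusted over the 6 genes or 2 chains with a row. Alternatives used DESeq2 1.42.0 and limma 3.58.1. The fits and tests were checked on simulated data.

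The 9 genes and all lists were chosen with earlier results of these data known. They include ITGB2, ITGAM, PTPRC, LCP2, TYROBP, PTPN6 and VCAM1, hub genes that the paper drew from its differential genes between H24 and NC. Their calls in H24 against NC are not independent of that. Of 74 pathway genes 71 had a row and of 68 marker genes 64, of which 6 of both kinds were matched by the NCBI accession in the table. Named pathway genes are at most 4 per list with the smallest p in H24 against NC, and 3 closest patterns per gene. RefSeq intervals are those of Sscrofa11.1. No sequences were analysed here.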

Additional observations from a re-analysis of the deposited data

How the results depend on the processing

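No log2 fold change of the 7 genes changed sign in 312 values under other settings, and 267 kept their side of the threshold. The other 45 lost the call. DESeq2 gave no p-value for ITGAM and FERMT3 in H24/NC and for ITGAM in H24/H8, and these are not counted as lost. Under the adjusted threshold 4 genes passed in H24/NC, 4 in H8/NC and 2 in H24/H8 with DESeq2, against 0 in edgeR with all libraries. With 1 library left out, edgeR placed 0 to 4 genes past it in H24/NC (4 without H24 replicate 3). In H8/NC it placed 0 to 2 (2 without H8 replicate 2) and in H24/H8 it placed 0. With a filter at a mean of 1 FPKM only 3 of the genes were tested in H8/NC, and 2 of these were called. ITGAM and PTPRC were not tested there, while ITGB2 and FERMT3 kept their call. The unadjusted calls in H8/NC fell from 4 to 2 with limma on log2(FPKM + 1). Those in H24/H8 fell from 7 to 4 with limma on log2(FPKM + 0.1), to 3 with limma on log2(FPKM + 1), and ranged from 0 to 7 with 1 library left out. Where this left 2 libraries in a group, the fit pools the spread over both groups.

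Deviations of libraries with the same replicate number correlated by -0.04 to 0.08. Those of replicate 2 matched their own number best in all 3 comparisons (0.053, 0.074 and 0.083). Values this low do not show a pairing by number, but 3 libraries per group cannot exclude one. With the replicate block, 6 of the genes were called higher in H24/NC, against 1114 of 14828 genes. In H8/NC 4 were called, against 639 of 14336, and in H24/H8 4, against 800 of 14788. The number of genes with a higher mean ratio to PTPRC was 1 in H24/NC, 3 with 0.1 FPKM added and 0 to 3 with 1 library left out (3 without H24 replicate 1, 0 without H24 replicate 2 and 2 without NC replicate 2). It was 0 in H8/NC (0 to 1 with 1 left out, 1 without H8 replicate 2) and 3 in H24/H8 (1 to 4 with 1 left out, 1 without H24 replicate 2).

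Over all genes, DESeq2 placed 879 higher and 75 lower past the adjusted threshold in H24/NC, 445 and 171 in H8/NC and 447 and 203 in H24/H8, against 0 and 0, 2 and 2, and 2 and 0 in edgeR. Limma on log2(FPKM + 1) called 714, 202 and 517 genes higher, against 1475, 733 and 1068. Scaling by library size only, chosen after seeing the data, shifted the median log2 fold change of all genes to 0.03, -0.13 and 0.24 in the 3 comparisons. It changed the share of calls that were higher from 69.2% to 55.7% in H8/NC and from 70.3% to 83.3% in H24/H8. Limma on log2(FPKM + 0.1) gave 47.3% in H8/NC. In H24/NC the share was 86.8%. The depth limits ITGA4 most, with 14 to 72 counts in 7 of 9 libraries. Each group had 3 libraries, and FPKM depends on the transcript models, which for ITGAM cover 3 RefSeq genes.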

Other observations

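Of the counter-receptors, 3 endothelial genes differed from the leukocyte genes in H8 replicate 2. This library was the lowest of H8 for all 7 leukocyte genes, yet it was the highest of H8 for the endothelial genes SELE, at 11.2 FPKM against 0.534 and 0.455 in H8 replicates 1 and 3, VCAM1, at 75.4 against 36.0 and 20.2, and ICAM1, at 57.7 against 20.7 and 13.4. ICAM2, of the same list, was lowest in that library, at 0.430 FPKM against 0.918 and 0.472. ICAM1 and these 3 genes as a group were chosen after their values were seen. In H8 against NC, SELE was called higher by the unadjusted thresholds (log2 fold change 4.12, edgeR adjusted p = 0.258), while VCAM1 was not (0.90, edgeR adjusted p = 0.415). These are values of 1 library, and no test across pigs bears on them.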
